A study of Homo sapiens with 8 samples.

Results

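The transcriptional response of LP-1 cells to CPI203 was examined in 4 of the 8 RNA-seq libraries of the series, 2 from cells given CPI203 and 2 from cells given the DMSO vehicle in the same experiment. LP-1 cells derive from a human multiple myeloma, the cancer of antibody-secreting plasma cells, and CPI203 is a small molecule that occupies the bromodomains of the BET proteins. Cells were grown in IMDM with fetal bovine serum, exposed to 250 nM CPI203 or to DMSO for 6 hr, and total RNA was prepared with a DNase step. The other 4 libraries are the experiment with SGC-CBP30, a CBP/EP300 bromodomain inhibitor used at 2.5 μM for 6 hr, and its own DMSO pair. Of the 63129 genes in the table, the 14686 that averaged 1 RPKM or more in the 4 CPI203 and DMSO libraries were analysed. RPKM is a read count scaled by transcript length and by the number of mapped reads, so a level in RPKM can be compared between genes of different length. Each group is a pair of biological replicates of 1 cell line, and the p-values measure only the spread between such libraries.

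The paired bromodomains of BET proteins, such as BRD2 and BRD3, bind acetylated lysines of histones. BET proteins help to bring the elongation kinase P-TEFb, a complex of CDK9 with cyclin T, to promoters and enhancers. In myeloma, BET inhibitors are best known for lowering transcription of MYC, and the genes of plasma cell identity that sit beside large enhancers have drawn attention for the same reason.

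The 4 libraries were of similar depth, between 26100000 and 29600000 reads as estimated from the steps in low RPKM values of single-exon genes, so that 1 RPKM in a 2 kb transcript stood for 52.2 to 59.2 reads. In the 8279 genes at 10 RPKM or above, the log2 difference between the CPI203 replicates had an SD of 0.106 and that between the DMSO replicates an SD of 0.116. Between a CPI203 and a DMSO library the SD was 0.553 to 0.564. The plasma cell label held in all 4 libraries: the 10 plasma cell markers had a summed level of 3189 and 3314 RPKM with DMSO and 2353 and 2312 RPKM with CPI203, with no marker at 0. IGJ alone was at 1780 and 1920 RPKM with DMSO and 1480 and 1451 RPKM with CPI203. Of these markers SDC1, TNFRSF17, XBP1, SLAMF7 and POU2AF1 fell, as given below, and the rest were not called. The summed level was at most 1.4 RPKM for 9 T and NK cell markers, 0.315 RPKM for 8 myeloid markers and 0.162 RPKM for 6 stromal markers, and none of these genes reached a mean of 1 RPKM. Among erythroid markers only HBB was tested, at 3.19 and 3.55 RPKM with DMSO and 1.91 and 1.06 RPKM with CPI203. Among mature B cell markers MS4A1, PAX5, FCER2 and CD22 were at 0 in all 4 libraries, and CR2 was at 1.66 and 1.92 RPKM with DMSO and 1.18 and 1.09 RPKM with CPI203, a call that was lost without DMSO replicate 2 (adjusted p = 0.0557) or without CPI203 replicate 2 (log2 fold change -0.56).

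Values were compared as log2(RPKM + 0.1) in limma, a scale on which the fold changes of weakly expressed genes come out too small. A gene was called where the Benjamini-Hochberg adjusted p was under 0.05 and the levels differed 1.5-fold or more. Of the 14686 genes tested 27.8% were called, 2033 higher (13.8%) and 2050 lower (14%) with CPI203 than with DMSO. At 2-fold or more 716 genes were called higher (4.88%) and 840 lower (5.72%), and at 4-fold or more 116 were higher (0.79%) and 121 lower (0.824%). The CPI203 and DMSO libraries did not overlap for 80.9% of all genes tested (39.8% higher and 41.1% lower with CPI203) and for 4082 of the 4083 called genes. With no limit on the fold, 64.4% of genes had an adjusted p under 0.05, 31.7% higher and 32.7% lower. The median log2 fold change over all genes was -0.01. For any 1 gene, the smallest two-sided p of an exact permutation test with 2 libraries per group is 0.333, so the calls rest on the spread that limma estimates over all genes. Counts of called members in the gene groups described next are to be read against the 13.8% called higher and 14% called lower among all genes. A value in parentheses after a gene is its log2 fold change with CPI203 against DMSO, and 2 levels joined by "and" are those of replicates 1 and 2. Every gene said to have risen or fallen was called, and its CPI203 pair lay wholly above or below its DMSO pair, with the exception of HDAC4.

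**Figure D1:**
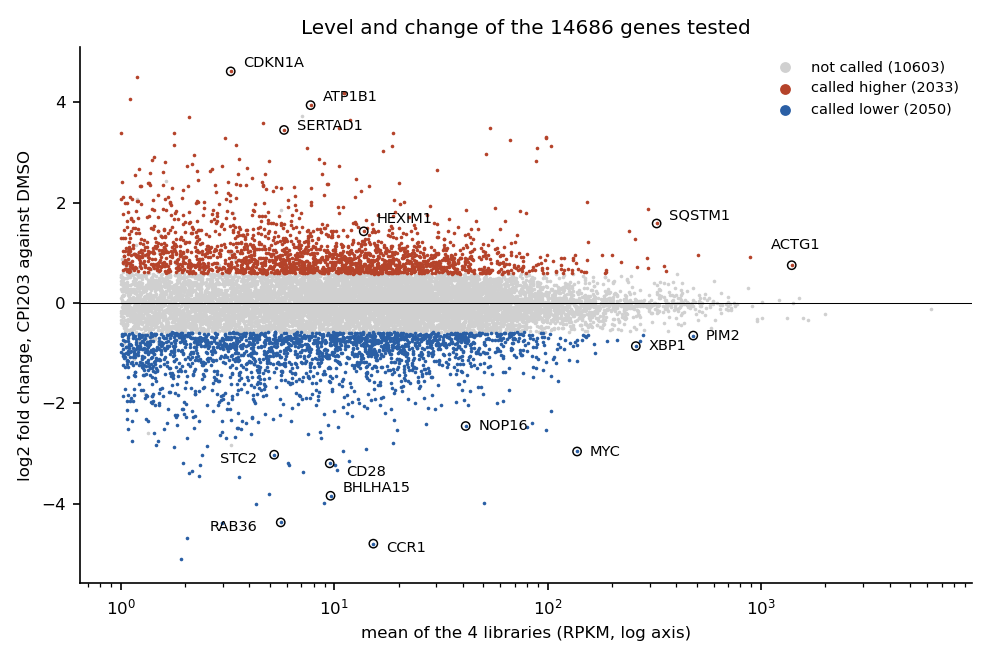
Each point is 1 of the 14686 genes tested, with the mean RPKM of the 4 libraries on a log axis and the log2 fold change of CPI203 against DMSO on the vertical axis. Genes called higher (2033) are red, genes called lower (2050) blue and the other genes grey, and 15 named genes are circled. Large changes in both directions were seen at low and middle levels, MYC was among the abundant genes that fell most, and the most abundant genes mostly changed by less than 1.5-fold.

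Among BET proteins and the P-TEFb machinery, 5 of 23 members tested were called higher and 2 lower. HEXIM1, which holds P-TEFb inactive in the 7SK ribonucleoprotein, was at 7.54 and 7.27 RPKM with DMSO and 19.8 and 20.3 RPKM with CPI203. Its log2 fold change was 1.43 (SE 0.07, adjusted p = 1.26e-07 from limma), and the pairs did not overlap. The gene (ENSG00000186834 in the deposited annotation) lies on chromosome 17 from 43224684 to 43229468 in hg19. BRD2 rose from 138 and 136 to 266 and 263 RPKM (log2 fold change 0.95). MEPCE, the enzyme that caps 7SK RNA, rose by 0.86 on the log2 scale, and AFF4, a scaffold of the super elongation complex, by 0.85. BRD3 rose from 1.44 and 2.12 to 2.58 and 3.16 RPKM, a call that was lost without DMSO replicate 1 (0.41) or CPI203 replicate 2 (0.54). The super elongation complex member MLLT1 (log2 fold change -0.85) and HEXIM2 (-0.85), a paralog of HEXIM1, were lower. CDK9, the kinase of P-TEFb, had a log2 fold change of 0.46, under the 1.5-fold limit. Transcripts used in blood as markers of BET inhibitor exposure were also measured, and 6 of 8 were tested. SERPINI1, an inhibitor of serine proteases, rose from 4.63 and 4.87 to 25.6 and 23.3 RPKM. ZCCHC24 rose from 1.82 and 1.68 to 8.37 and 8.88 RPKM. CCR1, MYC and ZMYND8 were lower, and HEXIM1 is the third member that was higher.

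MYC, the transcription factor that drives growth and ribosome production, fell to 12.8% of its mean DMSO level. It was at 247 and 239.6 RPKM with DMSO and 31.5 and 30.9 RPKM with CPI203, a log2 fold change of -2.96 (SE 0.05, adjusted p = 4.44e-10 from limma). Of the 11 members of the MYC network that were tested, 2 were called lower and 3 higher, with a median log2 fold change of -0.18. The other member that fell was MNT, a MAX partner that opposes MYC, with a log2 fold change of -1.12. The MAX partners MXD1, MXD3 and MXD4, which also oppose MYC, were called higher. Their relative MXI1 was at 51.1 and 49.3 RPKM with DMSO and 52.7 and 52.4 RPKM with CPI203 and was not called (0.07). MXD4 rose from 14.3 and 12 to 25.8 and 26.8 RPKM. MXD3 rose from 3.85 and 3.55 to 6.99 and 8.87 RPKM. MXD1 rose from 6.52 and 6.53 to 12.5 and 11.5 RPKM. The rise of MXD3 did not pass the test when all 4 DMSO libraries of the series served as controls (adjusted p = 0.0926 from limma). TFAP4, a helix-loop-helix factor, was at 18.3 and 18.2 RPKM with DMSO and 1.48 and 2.36 RPKM with CPI203, 1 of the 15 largest decreases named.

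Of all the gene lists, that of ribosome assembly in the nucleolus held the most called decreases. Of 49 members tested 41 were called lower and none higher, all 49 had an adjusted p under 0.05 with a negative fold change, and the CPI203 pair lay below the DMSO pair for every member, as it did for 41.1% of all genes. The median log2 fold change was -1.21, against -0.01 over all genes tested, and the median level went from 52.5 RPKM in both DMSO libraries to 20.5 and 21.0 RPKM in the CPI203 libraries. NOP16, a nucleolar protein of the large subunit pathway, was at 68.2 and 71.4 RPKM with DMSO and 13.1 and 12.3 RPKM with CPI203. Its log2 fold change of -2.45 (SE 0.05, adjusted p = 1.11e-09 from limma) was the largest in the group. RRS1, needed to load the 5S RNA particle, fell from 64.6 and 64.1 to 16.7 and 17 RPKM. WDR3, a component of the small subunit processome, fell from 66.3 and 67.6 to 20.3 and 19.5 RPKM. PPAN, a large subunit factor, fell by 1.62 on the log2 scale. NOP56, a core protein of the box C/D small nucleolar particles and the most abundant member that was called, went from 344 and 335 to 207 and 197 RPKM. The 8 members that were not called included the abundant nucleolar proteins NCL (log2 fold change -0.49) and NPM1 (-0.23).

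**Figure D2:**
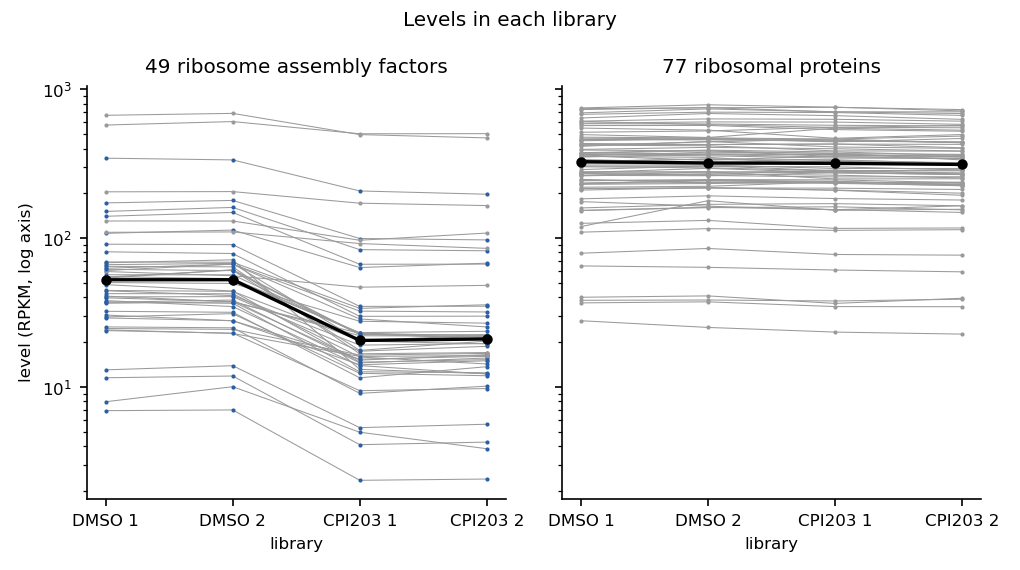
Level in RPKM on a log axis of 49 genes of ribosome assembly (left) and 77 ribosomal protein genes (right) in the 2 DMSO and 2 CPI203 libraries; each thin line is a gene, blue points are members called lower, grey points members not called, and the black line is the median. The median of the assembly genes drops from 52.5 to about 21 RPKM, whereas that of the ribosomal proteins stays between 313 and 326 RPKM.

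To show the sequence around the start of these genes, stretches were read from the RefSeq promoter table (GRCh38.p14). Each runs from 100 bases before to 30 bases after the annotated start. Members on chromosomes 8 and 18 were left out first. The 4 shown had the largest decrease among the others whose stretch holds CACGTG, the palindromic E-box that MYC with MAX is known to bind. CACGTG is in capitals, and base 1 is the first base of the gene.
WDR43: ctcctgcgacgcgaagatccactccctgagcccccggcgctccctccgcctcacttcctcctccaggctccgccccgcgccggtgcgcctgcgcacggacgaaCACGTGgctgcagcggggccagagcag
PNO1: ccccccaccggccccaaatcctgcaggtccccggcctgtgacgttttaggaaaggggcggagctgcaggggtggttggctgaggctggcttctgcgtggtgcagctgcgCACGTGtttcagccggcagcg
MRTO4: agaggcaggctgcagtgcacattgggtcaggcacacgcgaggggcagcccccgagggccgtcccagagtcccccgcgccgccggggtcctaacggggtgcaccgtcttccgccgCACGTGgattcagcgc
NOC3L: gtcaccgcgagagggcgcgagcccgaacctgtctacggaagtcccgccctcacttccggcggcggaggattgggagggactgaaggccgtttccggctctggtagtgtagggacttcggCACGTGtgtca
The stretches are chr2:28894567-28894696 (plus strand), chr2:68157788-68157917 (plus), chr1:19251705-19251834 (plus) and chr10:94362910-94363039 (minus). The E-box began at base 4 in WDR43, base 10 in PNO1, base 15 in MRTO4 and base 20 in NOC3L, just inside the transcribed part. These genes went from 57.8 to 18.9, 36.8 to 12.5, 42.3 to 15.1 and 30.3 to 12.1 RPKM as means of the DMSO and of the CPI203 libraries. In the full 300-base promoters, CACGTG was found in 16 of the 42 ribosome assembly genes with a promoter in the table (38.1%), against 10.6% of the 8855 protein-coding genes tested that had one and 7.44% of all 27305 genes in it. Within the 40 bases before the start and the 50 after it the shares were 33.3% and 3.79%. Before the start alone, the ribosome assembly and protein-coding genes were alike within 100 bases, at 4.76% and 5.04%. Within 40 bases before it they were at 4.76% and 2.35%. Over all protein-coding genes, 15.9% of the promoters of genes called lower and 8.16% of those called higher held it. A match describes letters and does not show that MYC was bound.

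Other genes of growth and biosynthesis were also called lower. Of the RNA polymerase I and III genes 10 of 23 tested were called lower and none higher, with a median log2 fold change of -0.49. POLR1B, the second largest subunit of the enzyme that makes ribosomal RNA, fell from 22.1 and 19.9 to 4.8 and 5.61 RPKM. Its partner POLR1A fell from 13.1 and 15.2 to 4.48 and 5.06 RPKM. The RNA polymerase III subunits POLR3D (-1.41) and POLR3G (-1.17) had the next largest log2 fold changes. Of 24 nucleotide synthesis genes 9 were called lower and 1 higher, with a median of -0.53. DHODH, the mitochondrial enzyme of pyrimidine synthesis, fell from 23 and 24.4 to 7.54 and 6.73 RPKM. CAD, which carries out the first steps of the same pathway, fell from 30.4 and 30.9 to 12.1 and 14.2 RPKM. RRM2, the ribonucleotide reductase subunit made in S phase, was the exception and rose from 106 and 111 to 198 and 197 RPKM. Among 10 polyamine genes, the synthetic enzymes AMD1 (-0.79) and SRM (-0.74) were lower, and so was the oxidase PAOX (-0.59). The synthetic enzymes ODC1 (0.06) and SMS (-0.38) were not called. The call of PAOX was lost without DMSO replicate 1 (-0.32) or CPI203 replicate 2 (-0.50). The catabolic enzymes SAT1, which acetylates spermidine and spermine, and SMOX were higher. SAT1 rose from 4.26 and 4.95 to 20.9 and 19.7 RPKM. SMOX rose from 2.13 and 1.79 to 5.24 and 4.91 RPKM.

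Genes for the proteins of the ribosome itself were not called. None of the 77 cytosolic ribosomal protein genes was called in either direction, and their log2 fold changes lay between -0.20 and 0.15 with a median of -0.04. Among 24 translation initiation and elongation factors the median was -0.24, and the only call was the rise of EIF4EBP2, which restrains cap-dependent translation, from 32.2 and 32.7 to 67 and 66.5 RPKM. The largest decrease, that of EEF1E1 (-0.58), was just under the 1.5-fold limit and passed it without DMSO replicate 1 (-0.63) or CPI203 replicate 1 (-0.67). Of 53 mitochondrial ribosome genes 17 were called lower and none higher (median -0.44), led by MRPS12 (-1.14), MRPL17 (-1.09), MRPL12 (-1.05) and MRPL34 (-1.03). No call was made among 45 nuclear genes of the respiratory chain (log2 fold changes from -0.44 to 0.25) or 34 proteasome genes (from -0.38 to 0.19). Of 33 SR proteins and hnRNPs, which bind and splice RNA, 4 were lower and 3 higher. SRSF7 fell from 138 and 136 to 61.1 and 59.5 RPKM. HNRNPDL fell from 190.2 and 190.3 to 84.4 and 85.8 RPKM. HNRNPD fell from 218 and 228 to 109.6 and 113 RPKM. HNRNPA3 (-0.61) was also lower, while the splicing kinases CLK1 (0.78) and CLK2 (0.62) and SRSF5 (0.62) were higher. HNRNPA3 was not called without CPI203 replicate 2 (-0.55), and SRSF5 (0.54) and CLK2 (0.58) were not called without DMSO replicate 2.

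**Figure D3:**
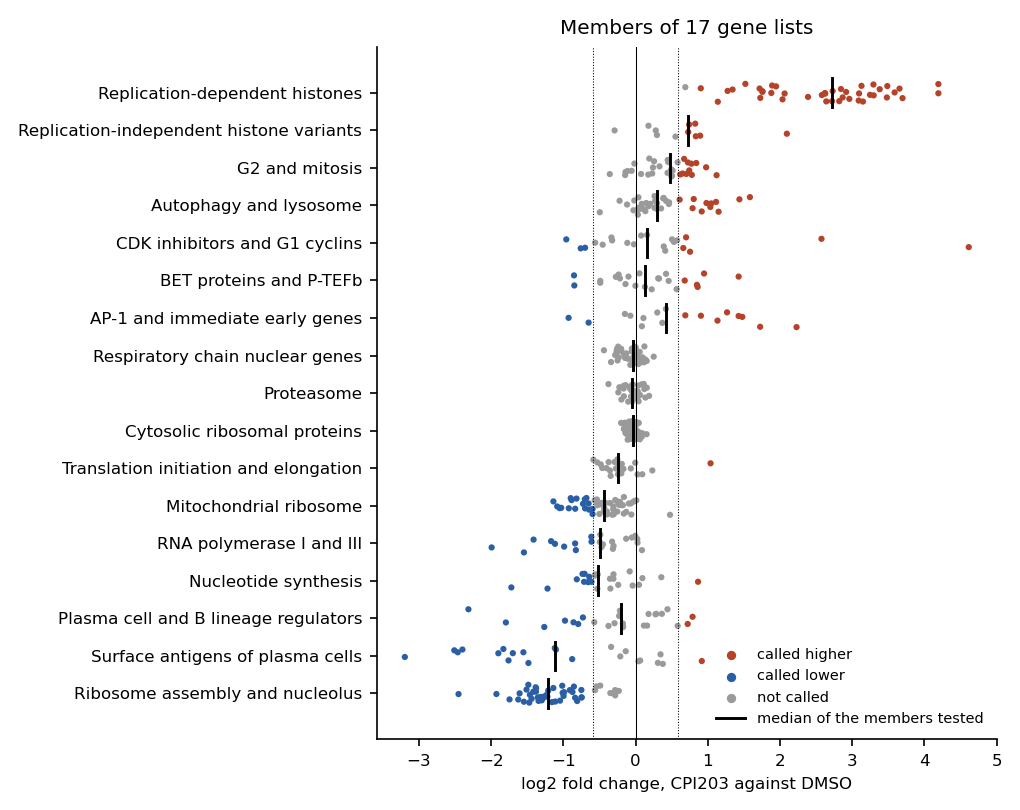
Each point is a gene tested in 1 of 17 lists, placed by its log2 fold change with CPI203 against DMSO; red points were called higher, blue points called lower and grey points not called, black bars are list medians, and dotted lines mark 1.5-fold. Replication-dependent histone genes lie to the right (median 2.72) and ribosome assembly genes to the left (median -1.21), while proteasome, respiratory chain and ribosomal protein genes stay inside the dotted lines.

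The most called increases of any list were in replication-dependent histone genes, which encode the bulk histones made in S phase and whose mRNAs end in a stem-loop in place of a poly(A) tail. Of 70 such genes 42 were tested, 41 of these were called higher and none lower, and the CPI203 pair lay above the DMSO pair for all 42, as it did for 39.8% of all genes. The median log2 fold change was 2.72, and the median level went from 1.83 and 1.51 RPKM to 12.2 and 12.1 RPKM. Of the 28 genes not tested, 12 were at 0 in all 4 libraries. A gene near the limit of 1 RPKM could pass through its CPI203 libraries alone, so the count over the members tested is a description. The increase was seen in every histone class. HIST1H1E, a linker histone, was at 2.29 and 1.15 RPKM with DMSO and 18.9 and 19.7 RPKM with CPI203. HIST1H2BK, the most abundant H2B gene, went from 154 and 146 to 365 and 360.3 RPKM. HIST2H2BE rose from 12.9 and 12.4 to 121 and 120.3 RPKM. The H3 gene HIST1H3B went from 1.9 and 1.43 to 22 and 22 RPKM. The H4 gene HIST1H4J rose from 0.647 and 0.603 to 6.36 and 6.29 RPKM. HIST2H3A and HIST2H3C, near-identical copies, were listed with the same values (1.18 and 0.946 RPKM with DMSO and 20.7 and 21.5 RPKM with CPI203), so their reads cannot be told apart. Whether the libraries were made from poly(A) RNA is not given in the sources used here.

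**Figure D4:**
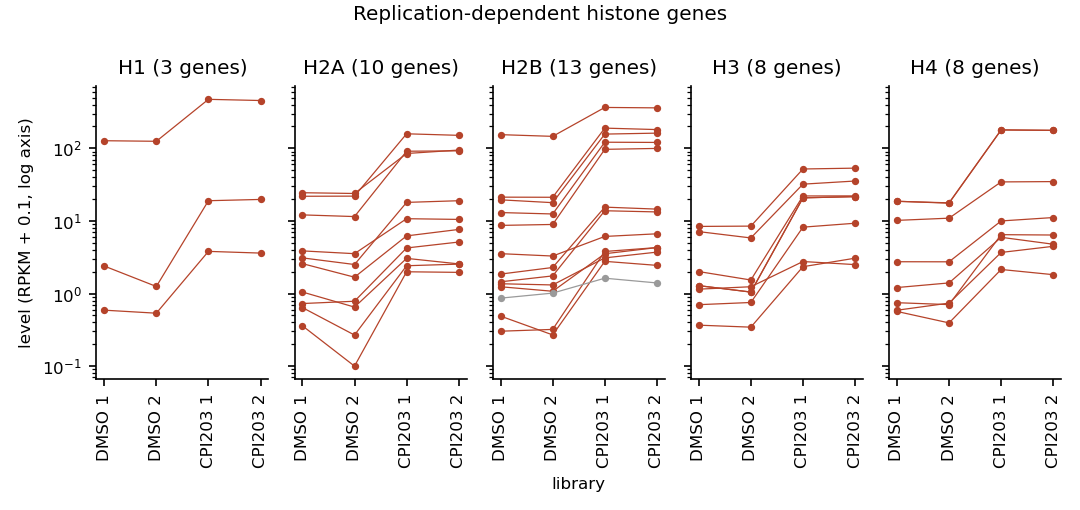
Level of 42 replication-dependent histone genes in each library as RPKM + 0.1 on a log axis, split by histone class; each line is a gene, red where it was called higher and grey for the 1 gene that was not. All lines step up between the DMSO and the CPI203 libraries, while replicates lie close together.

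Many promoters of these genes hold short sequences that are rarer among the promoters of all protein-coding genes tested. The stretches shown are, for each histone class, those of the gene with the largest increase that holds TATAAA (the TATA box) within 100 bases of its start, again from 100 bases before to 30 after it. TATAAA and CCAAT, on either strand, are in capitals.
HIST1H1E: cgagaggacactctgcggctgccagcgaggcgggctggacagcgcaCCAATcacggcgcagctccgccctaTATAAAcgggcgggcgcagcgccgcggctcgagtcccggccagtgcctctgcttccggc
HIST1H2AG: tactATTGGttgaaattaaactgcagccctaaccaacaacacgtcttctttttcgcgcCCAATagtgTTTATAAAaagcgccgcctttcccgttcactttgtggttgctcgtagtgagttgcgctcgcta
HIST2H2BE: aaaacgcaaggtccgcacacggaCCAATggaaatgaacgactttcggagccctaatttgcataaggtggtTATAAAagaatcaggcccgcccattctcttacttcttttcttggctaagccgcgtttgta
HIST2H3C: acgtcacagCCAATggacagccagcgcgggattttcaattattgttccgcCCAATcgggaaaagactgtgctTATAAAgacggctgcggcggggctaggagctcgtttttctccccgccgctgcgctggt
HIST1H4J: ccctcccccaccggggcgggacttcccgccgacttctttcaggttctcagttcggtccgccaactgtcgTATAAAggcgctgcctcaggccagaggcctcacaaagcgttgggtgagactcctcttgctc
They lie at chr6:26156229-26156358 (plus strand), chr6:27132943-27133072 (plus), chr1:149886653-149886782 (minus), chr1:149841179-149841308 (minus) and chr6:27823992-27824121 (plus) in GRCh38.p14. The TATA box began 28 to 31 bases before the start in these 5 genes, and HIST1H4J held no CCAAT in its stretch. Within the 40 bases before the start, TATAAA was found in 22 of the 39 histone genes with a promoter in the table (56.4%) and in 1.74% of the protein-coding genes tested, and within the 100 bases before the start CCAAT was found in 32 of 39 (82.1%) and in 23.1%. Over the full 300 bases, CCAAT was found in 82.1% of the histone genes and in 35.7% of all promoters in the table. It was not particular to these histone genes. It was found in 78.8% of 33 promoters of the secretory pathway list and in 77.8% of 9 promoters of the histone variants described next. TATAAA was found over the 300 bases in 69.2% of the histone genes and in 44.4% of the 9 variants. In HIST1H2AG the match on the other strand overlaps the TATA box. Anywhere in the 300 bases, TATAAA was found in 11.9% of all 27305 promoters, in 6.54% of those of protein-coding genes called higher and in 5.26% of those called lower.

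Histone variants not made only in S phase, listed as replication-independent, were tested as well. Of 11 replication-independent variants 6 were called higher and none lower, with a median of 0.73. H1F0, a linker histone of non-dividing cells, rose from 0.579 and 0.775 to 3.41 and 2.99 RPKM. H1FX rose from 211 and 198 to 365 and 396 RPKM, while H3F3B, which encodes H3.3, rose from 157 and 160.0 to 276 and 286 RPKM. H3F3C was higher by 0.83 on the log2 scale, CENPA, the centromeric H3, by 0.74 and H2AFX by 0.73. Of 11 genes that process histone mRNA, LSM11 (-1.05) and LSM10 (-0.78) of the U7 particle and its partner ZNF473 (-0.74) were lower. CASP8AP2 was higher by 0.60, a call lost without DMSO replicate 1 (0.47) or CPI203 replicate 2 (0.45). SLBP, which binds the stem-loop, had a log2 fold change of 0.42. Of 26 histone acetyltransferases and deacetylases 4 were higher and 2 lower. SIRT1, an NAD-dependent deacetylase, rose from 15.2 and 14.9 to 44.7 and 45.8 RPKM. The acetyltransferase KAT2B rose from 9.19 and 9.93 to 17.6 and 18.5 RPKM. KAT6A (0.61) and HDAC11 (0.75) were also higher, and KAT2A (-0.79) was lower. KAT6A was not called without DMSO replicate 1 (0.56). HDAC4 was called at the limit (-0.59), is the 1 called gene of all 4083 whose pairs overlapped, and was not called without DMSO replicate 2 (-0.32) or CPI203 replicate 1 (-0.23).

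Of 21 cell cycle inhibitors and G1 regulators 5 were called higher and 3 lower. CDKN1A, which encodes the CDK inhibitor p21, had the largest increase of all genes tested. It was at 0.217 and 0.121 RPKM with DMSO and 6.17 and 6.57 RPKM with CPI203, a log2 fold change of 4.61 (SE 0.28, adjusted p = 5.08e-07 from limma). The gene (ENSG00000124762) lies on chromosome 6 from 36644305 to 36655116 in hg19. Its DMSO values stand near the pseudocount, so the fold change is less certain than its direction. CDKN2D, which encodes the CDK4 and CDK6 inhibitor p19, rose from 1.23 and 1.36 to 8.74 and 7.65 RPKM. CDKN2C, which encodes p18 and was already abundant, rose from 224 and 226 to 367 and 363 RPKM. CCNE2 (0.75) and CDK2 (0.66), which act at the entry into S phase, were higher. CCND2, a D-type cyclin, fell from 81.3 and 76.9 to 41.2 and 40 RPKM, and its kinase partners CDK4 (-0.76) and CDK6 (-0.70) were lower as well.

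Of 36 genes of DNA replication 3 were called higher and 3 lower, and the median was -0.01. CLSPN, an adaptor of the replication checkpoint, rose from 9.91 and 10.5 to 26.8 and 27.1 RPKM, with LIG1 (0.60) and UHRF1 (0.59) just over the limit. LIG1 was not called without DMSO replicate 1 (0.55) or CPI203 replicate 1 (0.52), nor UHRF1 without DMSO replicate 2 (0.58) or CPI203 replicate 2 (0.56). POLE2 (-0.95), TIPIN (-0.88) and the nucleoside transporter SLC29A1 (-0.69) were lower. Of 32 genes of G2 and mitosis 11 were called higher and none lower, with a median of 0.47. CENPE, a kinetochore motor, rose from 14.5 and 16 to 33.2 and 33.2 RPKM. CDC25C, the phosphatase that activates CDK1, rose from 6.4 and 6.84 to 13.4 and 12.8 RPKM. MKI67 rose from 18.9 and 19.1 to 35.7 and 32.4 RPKM. CDC25B was higher by 0.78. With all 4 DMSO libraries as controls the rise of MKI67 did not pass the test (adjusted p = 0.125 from limma). Of 28 genes of homologous recombination and crosslink repair, RAD51D (-1.35), PALB2 (-0.94) and RAD50 (-0.75) were lower and FANCE (1.00), EXO1 (0.76) and BRCA2 (0.61) were higher. BRCA2 was not called without DMSO replicate 2 (0.57) or CPI203 replicate 2 (0.58). Bulk RNA cannot tell a change in the share of cells in a cycle phase from a change of RNA per cell.

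Of 20 p53 target genes tested 8 were called higher and 3 lower, with a median of 0.25. TP53INP1, an antiproliferative stress gene, rose from 30.1 and 31 to 95.5 and 95.3 RPKM. AEN, an exonuclease linked to apoptosis, fell from 32.9 and 30.6 to 6.27 and 6.15 RPKM. PLK3 fell from 3.83 and 4.34 to 1.6 and 1.02 RPKM. The death receptor FAS fell from 11.1 and 13.4 to 6.06 and 5.59 RPKM. SESN2 rose by 1.18 on the log2 scale, and MDM2 had a log2 fold change of -0.28. Large changes in both directions were thus found in the list. In the BCL2 family 1 of 12 members was called higher and 1 lower. MCL1, on whose protein many myeloma cells depend for survival, rose from 195 and 199.8 to 327 and 321 RPKM. BCL2L1, which encodes BCL-XL, fell from 23.8 and 23.5 to 15.7 and 15.2 RPKM. BCL2 had a log2 fold change of -0.26. Of 17 caspases and their regulators, APAF1, the apoptosome scaffold, rose from 2.83 and 3.13 to 8.87 and 8.16 RPKM, with CASP9 (0.86) and BIRC2 (0.81) also higher. CFLAR, which blocks caspase-8 at death receptors, fell from 67.5 and 72.4 to 32.8 and 28.6 RPKM, and CASP4 (-1.21) and CASP1 (-0.81) were lower. MLKL, the executioner of necroptosis, was 1 of the 15 largest decreases named, at 12.6 and 13.4 RPKM with DMSO and 1.23 and 1.13 RPKM with CPI203.

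Surface antigens of plasma cells were mostly lower. Of 22 surface antigens tested 13 were called lower and 1 higher, with a median log2 fold change of -1.11. CD28, a costimulatory receptor that myeloma cells can carry, had the largest fall, from 17.7 and 16.8 to 1.71 and 1.88 RPKM. TNFRSF17, which encodes BCMA, the receptor for the plasma cell survival factors BAFF and APRIL, was at 139 and 145 RPKM with DMSO and 27.3 and 26.6 RPKM with CPI203 (log2 fold change -2.40, SE 0.05, adjusted p = 6.36e-10 from limma). TNFRSF13B, which encodes TACI, a second receptor for these factors, fell from 137 and 134 to 23.3 and 25.8 RPKM. Both pairs were far apart relative to the replicates. FCRL5, an Fc receptor-like protein, fell from 1.85 and 1.96 to 0.226 and 0.28 RPKM. SLAMF7, the target of a therapeutic antibody, fell from 41.6 and 41.7 to 11.2 and 10.9 RPKM. SDC1, the heparan sulfate proteoglycan CD138, fell from 63.6 and 57.5 to 19.5 and 21.6 RPKM. CD38, another antibody target, was at 29.4 and 31.3 RPKM with DMSO and 26.9 and 25.5 RPKM with CPI203, a log2 fold change of -0.21. CD44, a hyaluronan receptor, was the member that rose, from 28.9 and 30.9 to 58 and 55.1 RPKM. With all 4 DMSO libraries as controls the rise of CD44 was no longer called (adjusted p = 0.0723 from limma).

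Of 24 transcription factors and regulators of the B lineage 7 were called lower and 2 higher. IRF8, a factor of germinal centre B cells, was at 1.92 and 1.78 RPKM with DMSO and 0.343 and 0.247 RPKM with CPI203. IKZF3, the zinc finger factor Aiolos, fell from 9.98 and 10.7 to 2.96 and 2.84 RPKM. POU2AF1, the B cell coactivator of the octamer factors, fell from 76.6 and 75.3 to 31.1 and 32 RPKM. XBP1, the factor of the secretory program, fell from 333 and 334 to 187 and 180.5 RPKM. SPIB had a log2 fold change of -0.98. The factors at the head of the plasma cell program changed by less than 1.5-fold, with IRF4 at 228 and 228 RPKM with DMSO and 203 and 202 RPKM with CPI203. PRDM1 was at 54.2 and 51.7 RPKM with DMSO and 70 and 66.3 RPKM with CPI203. ID2 (0.79) and BACH2 (0.72) were the members called higher. BHLHA15, which encodes the secretory cell factor MIST1 and was not in the list, fell from 17.5 and 18.5 to 1.14 and 1.19 RPKM, 1 of the 15 largest decreases named. LP-1 carries the t(4;14) translocation, which places FGFR3 and WHSC1 beside immunoglobulin enhancers. Of 4 genes around the breakpoint 3 were called lower and none higher. FGFR3 fell from 35.7 and 32.5 to 10.6 and 12 RPKM. WHSC1 fell from 75.4 and 75.2 to 41.1 and 39.7 RPKM. Their neighbour LETM1 fell from 63.2 and 59 to 17.5 and 19.3 RPKM. TACC3, the other neighbour, was at 61.5 and 60.1 RPKM with DMSO and 68.5 and 72 RPKM with CPI203 and was not called (0.21). Only 2 of 37 genes of the secretory pathway and unfolded protein response were called lower, SDF2L1 (-0.86) and SEL1L (-0.65), and none higher (median -0.03).

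Cytokine and chemokine genes showed large single changes. CCR1, a receptor for inflammatory chemokines, had the largest decrease among the genes named, from 30.2 and 28.8 to 1.07 and 0.874 RPKM (log2 fold change -4.79, SE 0.09, adjusted p = 5.9e-10 from limma). It (ENSG00000163823) lies on chromosome 3 from 46243200 to 46249887 in hg19. Of 6 chemokine genes tested 4 were lower and none higher. CXCL12, the homing chemokine of the marrow, fell from 53.4 and 48.3 to 12.3 and 12.4 RPKM. CXCL10 fell from 90.7 and 94.9 to 22.5 and 23.9 RPKM. CCR10 fell from 33.5 and 29.3 to 14.1 and 16.9 RPKM. Of 20 genes of interleukin-6 signalling 5 were lower and 5 higher, and the receptor chains IL6R and IL6ST moved opposite to the kinases JAK1 and JAK2. IL6R fell from 29.1 and 28.1 to 8.74 and 8.76 RPKM. The shared chain IL6ST fell from 91.8 and 105 to 49.7 and 49.1 RPKM, while JAK1 (0.83), JAK2 (0.82) and STAT3 (0.77) were higher. PTPN6 (-1.27) and BCL3 (-1.07) were lower, and IL10RA (1.04) and PTPN1 (0.65) higher. PIM2, a survival kinase downstream of cytokines, lost the most RPKM of the named genes that were called, from 597 and 577 to 378 and 370.1 RPKM. IGJ, which was not called, lost more (384 RPKM between the means).

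Of 10 TNF receptor family members tested 6 were lower and 2 higher. TNFRSF12A, the receptor for TWEAK, rose from 0.83 and 1.13 to 6.69 and 6.94 RPKM. The decoy receptor TNFRSF10D rose from 3.09 and 3.1 to 10.6 and 11.2 RPKM, whereas TNFRSF21 (-1.56) and the decoy receptor TNFRSF10C (-1.30) were lower. Of 19 NF-kB subunits and targets 5 were lower and 4 higher. LTA, which encodes lymphotoxin alpha, fell from 11.4 and 10 to 3.05 and 2.78 RPKM. NFKBIZ, an inducible nuclear regulator of NF-kB, rose from 1.05 and 1.21 to 4.6 and 5.56 RPKM. The deubiquitinase CYLD (1.04) and the inhibitor NFKBIA (0.95), both of which restrain the pathway, were higher. Of 21 interferon-stimulated genes 4 were higher and 4 lower. The increases included 3 factors that carry the interferon signal. IRF7 rose from 4.4 and 3.28 to 20.6 and 22.2 RPKM. IRF9 rose from 6.18 and 5.51 to 16 and 16.4 RPKM. STAT2 rose from 39.9 and 41.5 to 93.9 and 93.6 RPKM, with IFI6 (0.71) as the fourth. The decreases were PARP12 (-0.98), EPSTI1 (-0.96), SAMD9L (-0.87) and IFIH1 (-0.67).

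CIITA, the master activator of HLA class II genes, fell from 17.1 and 14.4 to 2.95 and 2.76 RPKM. Its cofactors RFXAP (-0.85) and RFX5 (-0.67) were lower too, but of the class II genes only HLA-DOA was called, at -0.60 on the log2 scale, and this call was lost without DMSO replicate 2 (-0.56) or CPI203 replicate 2 (-0.54). Of 17 HLA class I and peptide loading genes, HLA-E rose from 103 and 99.9 to 156 and 163 RPKM, which was not called against all 4 DMSO libraries, and none fell. Of 6 checkpoint and costimulatory ligands tested PVR (-1.16) and TNFRSF14 (-0.70) were lower. Of 17 genes of B cell receptor signalling 6 were lower and 5 higher. The adaptors BLNK, from 5.9 and 6.12 to 0.837 and 0.879 RPKM, and PIK3AP1, from 2.27 and 2.35 to 0.494 and 0.547 RPKM, and the kinase BLK (-1.78) fell most. Of 17 integrins and other marrow adhesion genes 6 were lower and 4 higher. SELPLG, the ligand of P-selectin, fell from 70.9 and 66.1 to 16.5 and 16.6 RPKM. ICAM1 fell from 33.4 and 30.9 to 8.84 and 10 RPKM. The integrin chain ITGA4 fell from 50 and 53.3 to 23.4 and 24.6 RPKM, while ITGAV rose by 1.12 on the log2 scale. Of 5 APOBEC3 enzymes tested APOBEC3G was lower (-0.65).

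Immediate-early genes rose more often than they fell, with 8 of 17 called higher, 2 lower and a median of 0.42. ATF3, a stress-induced repressor, rose from 4.51 and 4.77 to 22.5 and 21.7 RPKM. ZFP36, which destabilises cytokine mRNAs, rose from 9.13 and 8.25 to 27.6 and 30.3 RPKM. BTG1 rose from 23.4 and 22.8 to 65.9 and 63.2 RPKM. JUN rose from 12.9 and 11.7 to 30.9 and 35.6 RPKM. MAFK (-0.93) and ZFP36L2 (-0.65) were lower, the latter not without DMSO replicate 1 (-0.58). Among 14 feedback genes of the MAPK pathway 4 were higher and 5 lower. RGS16, which switches off G protein signals, fell from 19.4 and 19.7 to 2.48 and 2.45 RPKM. SPRY1, which restrains receptor tyrosine kinases, fell from 5.43 and 5.07 to 1.52 and 1.26 RPKM, while the ETS factor ETV5 rose from 0.657 and 1.28 to 3.14 and 2.93 RPKM. RGS1, a relative of RGS16, had a log2 fold change of -1.39.

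Of 26 genes of the ATF4 and amino acid response 7 were lower and 6 higher (median -0.34). STC2 fell from 8.51 and 10.3 to 0.999 and 1.13 RPKM. The amino acid transporter SLC7A5 fell from 124 and 118 to 49.1 and 51 RPKM, and TRIB3, a pseudokinase that restrains this response, had a log2 fold change of -1.24. ATF3 is also a member of this list. Of 27 heat shock genes and chaperones 6 were lower and 4 higher. HSPA2 (1.63) and DNAJB4 (1.20) were higher, and HSPA4L (-1.20) and CHORDC1 (-0.79) lower. HSPA1A had a log2 fold change of -0.69 that was not called against all 4 DMSO libraries, and shares near-identical sequence with HSPA1B. HSPB1 rose from 294 and 268 to 418 and 453 RPKM, a change of 0.63 on the log2 scale that fell under the 1.5-fold limit without DMSO replicate 2 (0.57) or CPI203 replicate 2 (0.58). In autophagy and the lysosome 11 of 37 genes were called higher and none lower, with a median of 0.30. SQSTM1, the cargo receptor p62, rose from 164 and 160.1 to 485 and 486 RPKM. ULK1, the kinase that starts autophagy, rose from 5.67 and 5.18 to 14.7 and 15 RPKM. The receptor OPTN rose from 21.1 and 19.6 to 43.4 and 47.1 RPKM. GABARAPL1, an autophagosome protein, was higher by 1.11.

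Of 22 genes of glycolysis and glucose transport 3 were lower and 2 higher, and the hexokinases HK1 and HK2 moved in opposite directions. HK2 fell from 19 and 19.3 to 5.41 and 5.9 RPKM. HK1 rose from 2.4 and 2.58 to 8.87 and 8.19 RPKM. PDK1 (-1.02) and PFKP (-0.66) were lower, ENO2 (1.26) was higher, and GAPDH had a log2 fold change of 0.21. Of 17 further genes of the HIF pathway 4 were higher and 1 lower. ANKRD37 fell from 168 and 168 to 28.7 and 29.4 RPKM. The demethylase KDM3A rose from 20.8 and 22.1 to 46.3 and 45.9 RPKM, with BNIP3L (0.80), EGLN1 (0.80) and HIF1AN (0.71). Of 26 genes of sterol synthesis and uptake TM7SF2 (0.95), IDI1 (0.77), INSIG2 (0.69) and LSS (0.67) were called higher and 1 gene lower. Against all 4 DMSO libraries neither IDI1 (0.55) nor LSS (0.08) was called. Of 12 fatty acid synthesis genes ACSS2 (0.86) was higher and ELOVL6 (-0.73) lower. Of 11 sodium, potassium and calcium pump genes ATP2B1 (0.76) was higher and ATP1B1, the beta subunit of the sodium pump, had the second largest of the increases named by size, from 0.748 and 0.983 to 15 and 14.2 RPKM (log2 fold change 3.94, SE 0.19, adjusted p = 1.44e-07 from limma).

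Genes outside these groups were named by the size of their change alone, among called genes with at least 5 RPKM in the higher group, with histone genes, pseudogenes, antisense and clone-named transcripts left out. Among the 15 largest increases were SERTAD1, a coactivator linked to cyclin D and CDK4, from 0.916 and 0.872 to 10.9 and 10.5 RPKM. TUBB3, the class III beta tubulin of neurons, rose from 3.52 and 2.87 to 33.2 and 35.5 RPKM. TUFT1 rose from 3.96 and 3.28 to 29.2 and 31 RPKM. FAM222A (2.82), TMEM2 (2.79), the Csk-binding adaptor PAG1 (2.73), FGFR1 (2.57), SMIM14 (2.57) and AP3B2 (2.48) were the others not described above. FGFR1 rose, from 0.865 and 1.04 to 6.06 and 6.18 RPKM, in libraries in which FGFR3 fell. Among the 15 largest decreases were SSTR3, a somatostatin receptor, from 97.3 and 91.5 to 5.49 and 6.24 RPKM, which is listed under an Ensembl identifier that did not match Gencode 29. HVCN1, the voltage-gated proton channel of B cells, fell from 19 and 18.5 to 1.65 and 1.91 RPKM. RAB36 fell from 11.3 and 10.3 to 0.48 and 0.377 RPKM. LRRC14B (-4.38), FJX1 (-3.80), DDN (-3.23) and ASB2 (-3.19) complete the named decreases. Ranked by RPKM gained, the leading genes were those of actin (ACTG1 and ACTB), VIM, SQSTM1 and TUBB4B. ACTG1 rose from 1049 and 1023 to 1739 and 1749 RPKM. ACTB rose from 621 and 611 to 1152 and 1159 RPKM. VIM rose from 353 and 336 to 680.2 and 659 RPKM. TUBB4B rose from 134 and 126 to 346 and 357 RPKM. LMNA, which encodes the nuclear lamins A and C, rose from 60 and 60.9 to 249.6 and 240.1 RPKM. The nuclear RNA NEAT1 rose from 265 and 259 to 429.8 and 445 RPKM. Among the largest losses, DEPTOR, an inhibitor of mTOR that many myelomas express highly, fell from 167 and 172 to 37.6 and 39 RPKM. CNBP fell from 337 and 345 to 219.7 and 216 RPKM.

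The response to CPI203 was set against that to SGC-CBP30 by testing the difference of the log2 fold changes, each taken against its own DMSO pair. The doses differ, 250 nM and 2.5 μM, so the test compares these treatments and not the compounds at equal effect. Each compound also has its own library series, so compound and series cannot be told apart. The SGC-CBP30 libraries were estimated at 50000000 and 46700000 reads, against 34400000 and 34000000 for their DMSO pair. The difference had an adjusted p under 0.05 for 50.6% of all genes tested and for 3332 of the 4083 called genes (81.6%). The called genes and those named by size were picked on the same CPI203 values, so that share is a description, and a gene with a large change had to differ more often. TNFRSF12A had a log2 fold change of 2.69 with CPI203 and 2.74 with SGC-CBP30, a difference of -0.05 (SE 0.36, adjusted p = 0.921 from limma). PIM2 had a log2 fold change of -0.65 with CPI203 and -0.61 with SGC-CBP30 (difference -0.04, SE 0.05, adjusted p = 0.527 from limma). MYC had a log2 fold change of -2.96 with CPI203 and -0.49 with SGC-CBP30 (adjusted p of the difference = 9.51e-08 from limma), and CDKN1A one of 4.61 and 0.27 (adjusted p = 1.81e-05 from limma). CCND2 (-0.96 and -0.97), CDK6 (-0.70 and -0.46), POU2AF1 (-1.26 and -1.10) and CXCL10 (-1.99 and -2.04) were called with CPI203 without a difference that passed the test. FGFR1 had opposite signs, 2.57 with CPI203 and -0.67 with SGC-CBP30 (adjusted p of the difference = 3.81e-06 from limma). So did CDC25B (0.78 and -0.71, adjusted p = 3.55e-07 from limma), SMOX (1.33 and -0.59) and HSPB1 (0.63 and -0.53). The median log2 fold change of the ribosome assembly genes was -1.21 with CPI203 and 0.02 with SGC-CBP30.

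**Figure D5:**
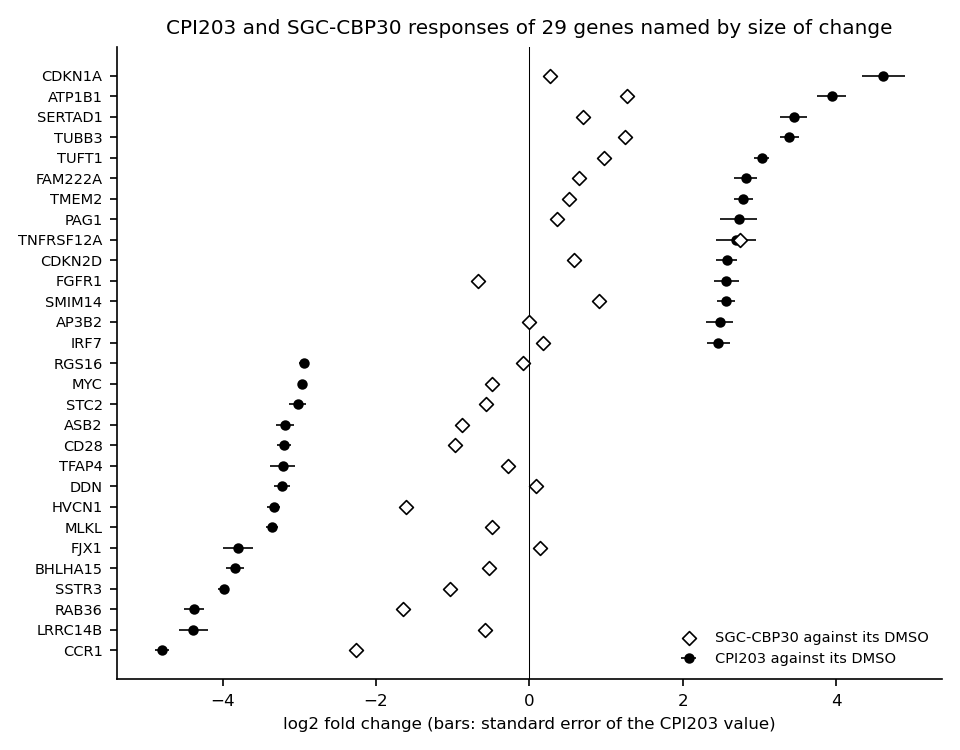
Log2 fold changes of the 14 increases and 15 decreases named by size for CPI203: filled circles are CPI203 against its own DMSO with bars of 1 standard error, and open diamonds are SGC-CBP30 against its own DMSO. TNFRSF12A is the gene whose symbols coincide (2.69 and 2.74), and most diamonds lie closer to 0 than the circles.

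The changed genes were described by class. Of 10652 protein-coding genes tested 15.4% were called higher and 14.5% lower. Long non-coding RNAs fell more often than they rose, with 14.4% of 278 lincRNA genes higher and 28.4% lower, and 15.4% of 462 antisense genes higher and 24.0% lower, although reads of a gene and its antisense partner cannot be told apart if strand was not kept. Processed pseudogenes, which resemble their abundant parents, were called in 5.69% and 6.00% of 2216 cases. Among protein-coding genes the share of calls fell with level, from 22.2% higher and 21.6% lower in the quintile with the lowest mean over the 4 libraries to 6.71% and 7.70% in the quintile with the highest. The shares of calls differed with gene length. In the shortest quintile, of 202 to 10661 bases in the genome, 11.6% were higher and 17.2% lower, and in the longest, from 94047 bases, 19.4% were higher and 12.8% lower. Single-exon protein-coding genes other than histones were called higher in 21.3% and lower in 15% of 160 cases, against 15.1% and 14.5% of 10467 multi-exon genes. Zinc finger genes named ZNF or ZFP on chromosome 19 were called higher in 24.3% and lower in 10.9% of 202 cases, with a median log2 fold change of 0.19.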

How the data were processed

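Sequencing and mapping of the LP-1 RNA were contracted out, and 1 table of RPKM per gene was deposited by the authors; TopHat 1.4.1, Cufflinks and hg19 are named in the submitters' processing notes. Groups came from the sample labels, and the DMSO pair of CPI203 is the one in the same library naming series. In the table, 24 columns that match no sample here were not used, and 27 genes lacked a value and were dropped. Depth per library (26100000 to 29600000 reads) is an estimate from the RPKM steps of single-exon genes, of which 60.9 to 63.8% of low values lay within 0.03 reads of a whole number, so no count test was run.

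RPKM values as deposited were taken as log2(RPKM + 0.1) for genes averaging 1 RPKM or more in the 4 libraries. Group means of all 8 libraries were fitted in limma 3.58.1 (R 4.3.3) with an intensity trend, CPI203 was compared with its DMSO, and p-values were adjusted over the 14686 genes by Benjamini-Hochberg. Called genes have an adjusted p under 0.05 and at least 1.5-fold. Data were also simulated with normal noise, 200 changed genes and no effect of SGC-CBP30. There 86.0% of genes changed 2-fold and 97.4% of genes changed 4-fold were called, with 5 false calls among 14486 unchanged genes. Far more genes passed the test in the real libraries, so these shares are not error rates of the calls reported here. The paper describes the DMSO controls as paired with the compound samples, while the labels used here give only a shared replicate number. The main fit did not use a pairing. The replicate deviations of the CPI203 and DMSO pairs correlated across 14686 genes at r = 0.0328, and 2 pairs cannot show whether the libraries were paired.

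The comparison, the gene lists and their members were chosen with earlier results of these data known. Genes named are the 15 largest increases and decreases with at least 5 RPKM in the higher group, the 10 largest RPKM gains and losses, and up to 4 called members and reference genes of each list; further members were chosen after their values were seen, as were the genes whose promoters are shown, and a few genes the rule would name are not reported here. Gene classes came from Gencode 29 (97.3% of the genes tested matched by identifier), level quintiles use the mean of the 4 libraries in place of the planned DMSO level, and promoters are RefSeq sequences of GRCh38.p14 at the first listed start. A promoter was found for 83.1% of the protein-coding genes tested, 42 of 49 ribosome assembly genes and 39 of 42 histone genes. Alternatives changed the pseudocount, filter, scaling, libraries, controls, block, trend and fold limit.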

Additional observations from a re-analysis of the deposited data

How the results depend on the processing

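The number of called genes (4083) was within 1.5 times of itself under another pseudocount, no filter, median scaling, quantile normalization, the 4 libraries alone, all 4 DMSO libraries as controls and no intensity trend. It was 2582 (1320 higher, 1262 lower) with a mean of at least 5 RPKM, where fewer genes are tested, 1556 (716 and 840) at 2-fold or more and 9453 (4650 and 4803) with no minimum fold. Leaving out 1 library gave 4021 to 4148 calls, 1996 to 2084 higher and 2025 to 2091 lower. With the replicate number as a block 4104 genes were called, 4070 of them among the 4083. The difference from SGC-CBP30 passed for 7426 genes, for 3613 of them at 1.5-fold or more and 1426 at 2-fold or more, and for 6694 to 6953 with 1 library left out. With at least 5 RPKM, 23 histone genes were called higher and 4 regulators of the B lineage lower, and with all 4 DMSO libraries 0 surface antigens were higher. For ribosome assembly genes the median log2 fold change was -1.16 with a pseudocount of 1, -1.18 with at least 5 RPKM and -1.20 to -1.19 with 1 library left out, and for histone genes it was 1.86 with a pseudocount of 1, 2.96 with at least 5 RPKM, 2.93 after quantile normalization and 2.86 with all 4 DMSO libraries. The median of genes of G2 and mitosis was 0.42 with all 4 DMSO libraries and 0.43 to 0.50 with 1 library left out, that of surface antigens -1.04 with a pseudocount of 1 and -0.99 with at least 5 RPKM, and that of B lineage regulators -0.028 with at least 5 RPKM. Among protein-coding genes alone, single-exon genes were higher in 21.3% and lower in 15% (7.68% and 7.80% over all types), the lowest level quintile in 22.2% and 21.6% (16.8% and 19.1%) and the shortest quintile in 11.6% and 17.2% (8.47% and 9.09%). Of 3363 pairs of a gene named in the text and an alternative, 3285 kept direction and call or absence of a call, 75 lost the call, 3 gained it (all EEF1E1, at -0.59 with median scaling) and 0 changed sign. Of the 75, 25 came from all 4 DMSO libraries (BRCA2, CASP8AP2, CD44, CDK2, CLK2, CR2, H2AFX, HBB, HLA-DOA, HLA-E, HNRNPA3, HSPA1A, HSPA1B, HSPB1, IDI1, IFI6, IFIH1, KAT6A, LIG1, LSS, MKI67, MXD3, SEL1L, SRSF5 and UHRF1) and 15 from a pseudocount of 1 (BRCA2, BRD3, CASP8AP2, CR2, EPSTI1, HDAC11, HDAC4, HLA-DOA, IFI6, IFIH1, KAT6A, LIG1, PAOX, TNFRSF14 and UHRF1). Values under a few RPKM rest on few reads, and with 2 libraries a group the error of single genes is borrowed from all genes.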
